A study of Mus musculus with 16 samples.

Results

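Cytokine receptors that contain gp130 (Il6st), and many related receptors, signal through JAK kinases and STAT transcription factors, and the SOCS proteins and CIS (Cish) are the feedback inhibitors that the pathway induces against itself. The transcripts followed here were 10 genes chosen by name for their place in this pathway: the receptor chain Il6st, the kinases Jak1 and Jak2, the transcription factors Stat3, Stat5a and Stat5b, and the inhibitors Socs1, Socs2, Socs3 and Cish. They are 10 of the 55414 genes of the count table, and were chosen with earlier results of these data known. All 10 passed the filter on low counts that left 11809 tested genes, Socs1 through the PBS+TNF libraries alone.

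In this pathway a cytokine brings receptor chains together, the JAK kinases bound to the chains phosphorylate each other and the receptor, and STAT proteins that dock there are phosphorylated, pair up and enter the nucleus. STAT3 acts downstream of gp130 and is known in the intestinal epithelium for its part in repair and in the production of antimicrobial lectins, while STAT5 acts downstream of growth hormone, prolactin and interleukin receptors. Socs1, Socs3 and Cish are among the genes that STATs switch on, and their proteins block the kinases or the receptors and lead them to degradation.

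The RNA came from Paneth cells, the antimicrobial secretory cells at the base of the crypts, sorted from the small intestine of mice of the C57BL/6J strain (age is not given in the sources used here). Mice were given DEX or PBS, then 1 h later tumour necrosis factor (TNF, a cytokine that acts through NF-kB) or PBS, and were sampled 3 h after that. The sources do not spell out DEX, which commonly stands for the glucocorticoid dexamethasone, and give no doses. There were 16 libraries, 4 biological replicates in each of 4 groups. Group names join both injections in order: DEX+TNF received DEX and then TNF, DEX+PBS and PBS+TNF received a single agent, and PBS+PBS neither. All values are read counts per gene, given below as normalised CPM unless plain CPM is stated. Normalised CPM are the counts of a gene relative to the library total in the usual unit, scaled by TMM factors for library composition. Plain CPM lack these factors.

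Library totals were 7286307 to 15832111 counts and TMM factors were 0.418 to 1.5, with the lowest factors in PBS+TNF 1 (0.418) and PBS+PBS 4 (0.503). All marker values in this paragraph are plain CPM, so the order of libraries in them can depend on the missing TMM factors. The summed level of 11 Paneth markers was 182431 to 286914 CPM in the 16 libraries. The sum of 12 immune markers was 42.5 to 400 CPM. Among them Cd74 reached 305 CPM, Lyz2 106 CPM and Ptprc 31.5 CPM, while the T cell markers Cd3e and Cd3g were at 0. Markers of stromal and endothelial cells summed to at most 1.42 CPM. Goblet cell markers (6 genes) summed to 3219 to 10239 CPM, highest in PBS+TNF 2, and 6 enteroendocrine markers to 12.2 to 48.3 CPM. The sum of 6 tuft cell markers was 0 to 1047 CPM and that of 11 enterocyte markers was 36.2 to 844 CPM, each highest in DEX+TNF 4. That library also held the highest sums of 5 stem cell markers (2293 CPM) and 5 cycling markers (208 CPM) and the lowest Paneth sum, and the part of these cells in the results below was not tested. In pooled RNA, fewer cells of a type and less RNA per cell cannot be told apart.

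The DEX+TNF libraries were of 2 kinds. Nfkbia, the NF-kB inhibitor that TNF induces, was at 277 to 337 CPM in PBS+TNF, and at 330 and 382 CPM in DEX+TNF 1 and 2. In the libraries labelled DEX+TNF 3 and 4 it was at 28.3 and 41.0 CPM, against 15.6 to 27.3 CPM in the groups without TNF. Tnfaip3, a further TNF target, was at 115 and 110 CPM in DEX+TNF 1 and 2 and at 2.25 and 7.38 CPM in 3 and 4. The glucocorticoid target Fkbp5 was at 43.2 to 135 CPM in all 4 libraries, against 6.51 to 31.0 CPM in the groups without DEX. Tsc22d3, which glucocorticoids also induce, was at 10.1 to 16.8 CPM in PBS+PBS and at 4.82 to 7.13 CPM in PBS+TNF. In DEX+PBS it was at 20.3 to 27.0 CPM. The DEX+TNF libraries 1 to 4 held 11.4, 10.7, 24.9 and 49.4 CPM of it. The tests of Socs1, Socs3 and the genes that differed between these kinds, and most list counts, are therefore also given without the libraries labelled 3 and 4.

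Socs3 and Cish are shown first by sequence, because among the 9 genes searched they alone held a STAT-type motif in the promoter window. The motif was TTCNNNGAA, which reads the same on both strands, and the window ran from 250 bases before to 50 bases after the RefSeq transcription start. Windows existed for 9 of the 10 genes (11 windows), all of which matched the GRCm39 assembly exactly. Socs2 had no window and was not searched. Capitals mark the motif in these 30-base stretches.
Socs3 (chr11:117860327-117860356, GRCm39, minus strand, positions -164 to -135): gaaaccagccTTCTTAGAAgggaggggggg
Cish (chr9:107173853-107173882, GRCm39, plus strand, positions -5 to 25): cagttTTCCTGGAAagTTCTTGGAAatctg
The Socs3 window held 1 motif, from -154 to -146, and the Cish window held 2, at 1 to 9 and 12 to 20. Of 32851 windows over all genes, 8.30% held the motif and 0.457% held it 2 or more times. A match is a description of these letters, not a binding site, and the windows without one say nothing about the factor.

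The order of the 10 transcripts differed between the injection groups. Compared per kilobase of exon, a scale that allows different genes to be set side by side, Jak1 was highest in PBS+PBS at 8.18 ± 0.638 normalised CPM per kilobase (SD, n = 4), followed by Stat3 at 6.96 ± 2.61 and Jak2 at 5.30 ± 1.64. Socs3 (2.07 ± 0.930), Il6st (1.83 ± 0.853), Socs2 (1.72 ± 0.0492) and Stat5b (1.58 ± 0.257) followed, and the 4 libraries overlapped between each neighbouring pair down to Stat5b. Stat5a (0.394 ± 0.169), Cish (0.296 ± 0.204) and Socs1 (0.0725 ± 0.0543) formed the low end, and of the neighbours in this group only Stat5b and Stat5a did not overlap.

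In PBS+TNF, Socs3 was first at 43.2 ± 9.56 CPM per kilobase (SD, n = 4), above Stat3 at 18.7 ± 4.97 in all 4 libraries and without overlap. Jak2 (16.4 ± 3.53), Jak1 (13.1 ± 2.20) and Il6st (9.43 ± 4.29) followed, each overlapping its neighbour. Cish at 3.13 ± 0.406 stood clearly below Il6st, and Socs1 at 0.822 ± 0.294 overlapped with Stat5a at 0.634 ± 0.0349 at the bottom. In DEX+PBS the order was led by Jak1 (7.62 ± 0.997), Stat3 (5.70 ± 0.742) and Jak2 (4.77 ± 0.669), and Socs3 stood below Socs2 at 1.03 ± 0.457. In DEX+TNF, Stat3 led at 13.3 ± 9.48, followed by Jak1 (10.1 ± 3.73), Jak2 (9.87 ± 5.28), Il6st (7.65 ± 6.85) and Socs3 at 7.63 ± 6.50. With the length of the longest transcript in place of all exons, 2 to 6 of the 10 ranks in a group changed.

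**Figure D1:**
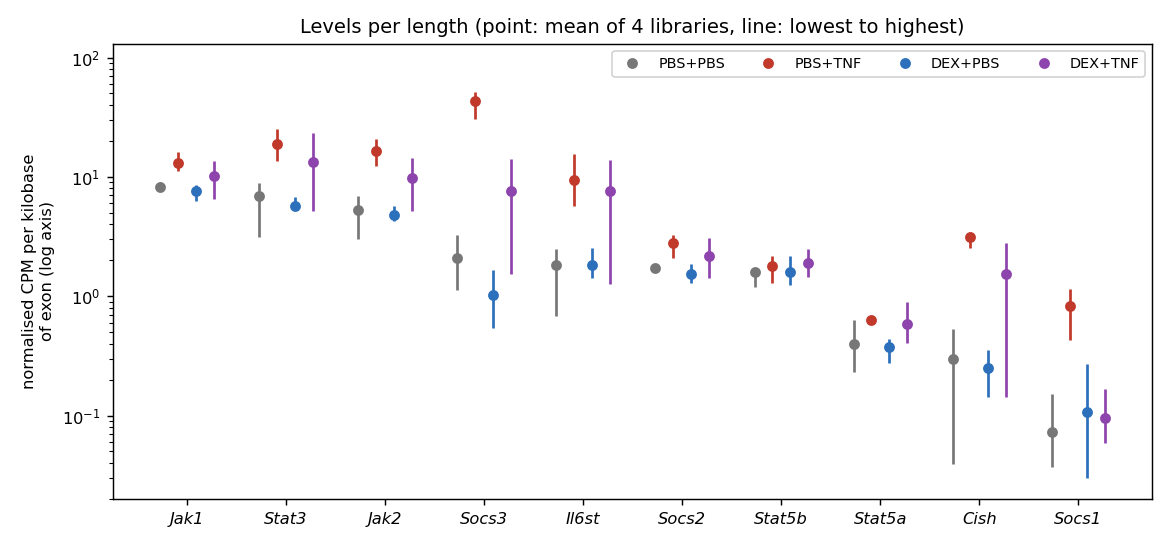
Level of each of the 10 genes per kilobase of exon (y axis, normalised CPM per kilobase, log scale) in the 4 injection groups; points are means of 4 libraries and lines run from the lowest to the highest library. Socs3 moves from 2.07 in PBS+PBS to 43.2 in PBS+TNF, while Stat5b stays between 1.58 and 1.91 in the 4 group means.

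TNF without DEX was examined in PBS+TNF against PBS+PBS. Of the 10 genes, 6 were called at an adjusted p under 0.05 and all 6 were higher, where 12.5% of the tested genes were called in either direction. They were the receptor chain Il6st, the kinase Jak2, the factor Stat3 and the inhibitors Socs1, Socs3 and Cish. Of these, Socs1 passed the filter on low counts only through PBS+TNF, the group where it was high. The 4 PBS+TNF libraries lay above the 4 PBS+PBS libraries for 8 of the 10 genes, where 19.5% of tested genes had groups that did not overlap in either direction. For Il6st, Jak1, Jak2, Stat3 and Socs2 this rested on the TMM factors, of which PBS+TNF 1 had the lowest (0.418). Without TMM factors that library lay inside the PBS+PBS range for these genes, as for Il6st at 36.9 CPM against 5.31 to 49.9 CPM. Socs1, Socs3 and Cish stayed above PBS+PBS in every PBS+TNF library. The median log2 fold change was 1.52 over the 10 genes and -0.03 over all tested genes. DESeq2 called 8 of the 10, adding Socs2 and Jak1, and 17.5% of all tested genes.

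Il6st (ENSMUSG00000021756, chromosome 13, 112600604 to 112646620, plus strand, GRCm39) encodes gp130, the signalling chain shared by the receptors of interleukin 6, interleukin 11, LIF and oncostatin M. It stood at 38.9, 26.2, 38.1 and 10.6 CPM in PBS+PBS 1 to 4 and at 88.4, 240.1, 112.6 and 144.8 CPM in PBS+TNF 1 to 4. The groups did not overlap, with PBS+PBS 4 the lowest and PBS+TNF 2 the highest library. Il6st rose by a log2 fold change of 2.36 (SE 0.62, adjusted p = 0.0192), a 5.14-fold difference. Its adjusted p was 0.000332 to 0.0845 over 25 alternative fits, and the call was lost without PBS+PBS 2 (0.0566), without PBS+TNF 2 (0.0591) and with no filter on low counts (0.0845).

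Jak2 (ENSMUSG00000024789, chromosome 19, 29228677 to 29290505, plus strand) encodes the kinase used by the growth hormone, prolactin and interferon gamma receptors and by gp130. It was at 35.6, 35.9, 43.7 and 19.1 CPM in PBS+PBS and at 77.4, 130.7, 96.8 and 109.8 CPM in PBS+TNF. Every PBS+TNF library was above every PBS+PBS library. Jak2 rose by a log2 fold change of 1.62 (SE 0.34, adjusted p = 0.00582), or 3.08-fold, and was called in all 25 alternative fits.

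Jak1 (ENSMUSG00000028530, chromosome 4, 101008838 to 101122487, minus strand), the kinase most used by gp130, was at 84.7, 97.9, 89.4 and 82.1 CPM in PBS+PBS and at 173.6, 147.2, 125.5 and 121.7 CPM in PBS+TNF. The groups did not overlap, but the log2 fold change of 0.68 (SE 0.24) did not pass the test (adjusted p = 0.0759). Its approximate 95% interval was 0.20 to 1.16.

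Stat3 (ENSMUSG00000004040, chromosome 11, 100775924 to 100830450, minus strand), the main transcription factor downstream of gp130, was at 89.4, 78.0, 82.2 and 31.4 CPM in PBS+PBS. It was at 171.8, 256.5, 137.1 and 189.6 CPM in PBS+TNF, all above the highest PBS+PBS library. Stat3 rose by a log2 fold change of 1.42 (SE 0.44, adjusted p = 0.0422), or 2.68-fold. This call is near the threshold: its adjusted p was 0.00192 to 0.112 over 25 alternative fits, and it was lost when any single PBS+PBS, PBS+TNF or DEX+PBS library was left out.

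Stat5a and Stat5b, near-identical factors that act downstream of the growth hormone, prolactin and interleukin 2 receptors, did not pass the test. Stat5a (ENSMUSG00000004043, chromosome 11, 100750177 to 100776065, plus strand) was at 1.92 to 5.18 CPM in PBS+PBS and 4.92 to 5.55 CPM in PBS+TNF, with overlap in PBS+PBS 3. Its log2 fold change was 0.68 (SE 0.32, adjusted p = 0.190). Stat5b (ENSMUSG00000020919, chromosome 11, 100671556 to 100741589, minus strand) was at 8.29 to 11.9 CPM and 8.86 to 14.9 CPM, with a log2 fold change of 0.19 (SE 0.23, adjusted p = 0.676) and an approximate 95% interval of -0.27 to 0.65. How reads that match both genes were counted is not stated, and the annotated ends of Stat3 and Stat5a share 142 bases on opposite strands, so a small part of these counts is uncertain.

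Socs3 (ENSMUSG00000053113, chromosome 11, 117856905 to 117860898, minus strand) encodes the inhibitor that binds gp130 and the JAK kinases. It was at 5.57, 8.43, 11.5 and 4.02 CPM in PBS+PBS 1 to 4 and at 177.6, 182.5, 108.8 and 146.5 CPM in PBS+TNF 1 to 4. The lowest PBS+TNF library was far above the highest PBS+PBS library. Socs3 rose by a log2 fold change of 4.36 (SE 0.61, adjusted p = 0.000663), or 20.6-fold, the largest change among the 10 genes, and was called in all 25 alternative fits.

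Socs1 (ENSMUSG00000038037, chromosome 16, 10600104 to 10603875, minus strand), an inhibitor of JAK kinases known mainly for restraining interferon signalling, was a transcript of few counts. PBS+PBS libraries held 6, 2, 4 and 1 counts and PBS+TNF libraries held 20, 24, 42 and 58. As levels these were 0.126 to 0.514 CPM against 3.85, 1.45, 2.95 and 2.87 CPM, without overlap. Socs1 rose by a log2 fold change of 3.44 (SE 0.70, adjusted p = 0.00482), or 10.9-fold, and was called in all 24 alternatives in which it was tested. No library outside PBS+TNF held more than 8 counts, so Socs1 passed the low-count filter through that group. Its comparisons with PBS+TNF carry this selection.

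Cish (ENSMUSG00000032578, chromosome 9, 107173225 to 107179983, plus strand), which encodes CIS, an inhibitor induced through STAT5 in many cells, was at 3.43, 2.17, 1.76 and 0.251 CPM in PBS+PBS. In PBS+TNF it was at 16.4, 20.2, 22.3 and 21.4 CPM. These groups did not overlap, and the log2 fold change was 3.36 (SE 0.69, adjusted p = 0.00507), or 10.3-fold, called in all 25 alternatives. PBS+PBS 4, with 2 counts of Cish, was the lowest library.

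Socs2 (ENSMUSG00000020027, chromosome 10, 95219523 to 95253929, minus strand), the inhibitor of growth hormone receptor signalling, was at 25.6 to 27.3 CPM in PBS+PBS and at 31.8, 42.1, 49.4 and 45.6 CPM in PBS+TNF. The groups did not overlap. The log2 fold change of 0.69 (SE 0.23) did not pass the test (adjusted p = 0.0597), and its adjusted p was 0.0122 to 0.154 over 25 alternatives.

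**Figure D2:**
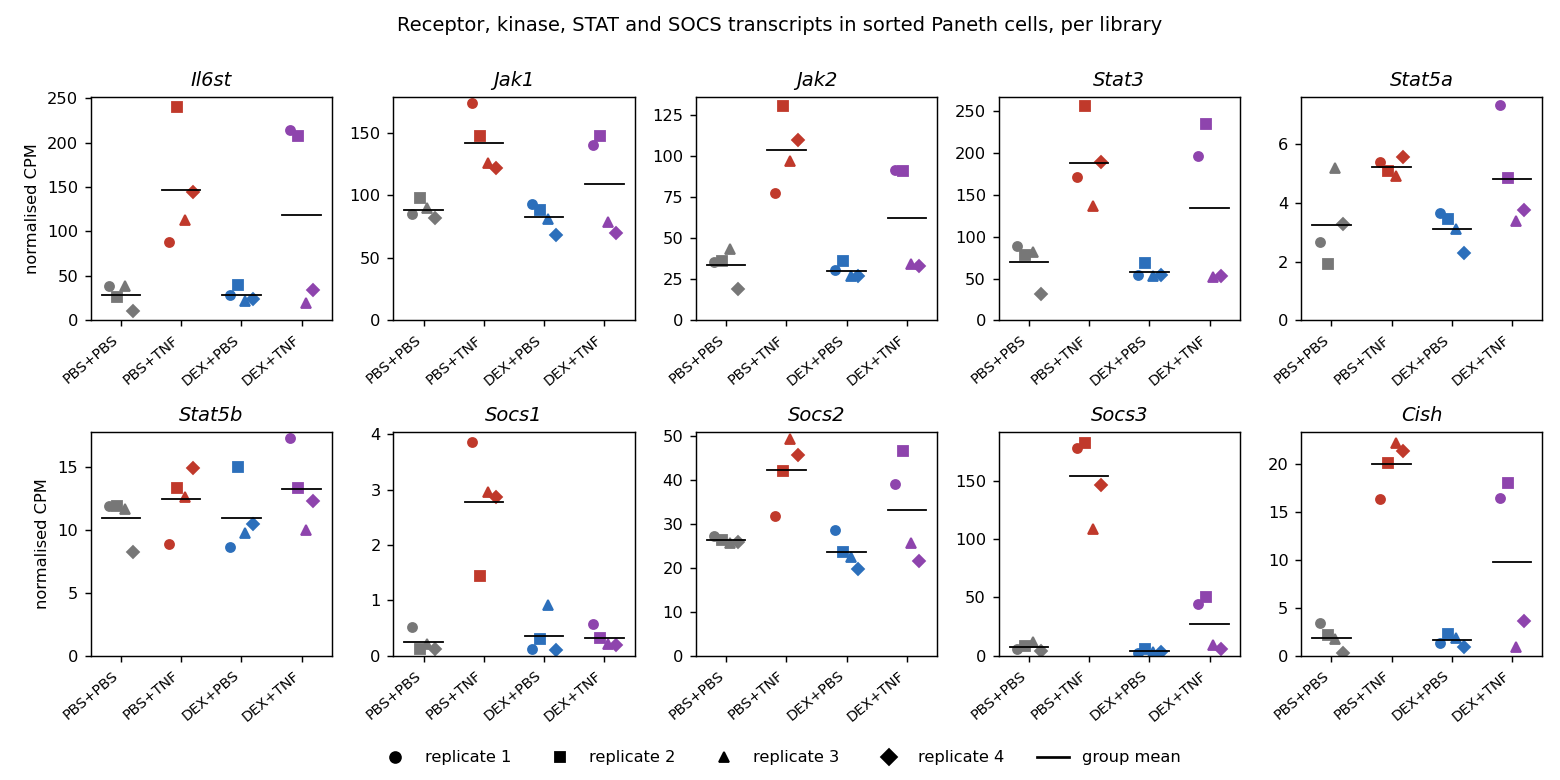
Normalised CPM (y axis, from 0, a scale of its own for each gene) of the 10 genes in each library of the 4 injection groups; markers give the replicate and black lines the group mean. In DEX+TNF, replicates 1 and 2 lie with PBS+TNF for Il6st (214.6 and 207.1 CPM) and far below it for Socs3 (43.9 and 50.2 against 108.8 to 182.5 CPM), and replicates 3 and 4 lie near DEX+PBS.

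DEX without TNF was examined in DEX+PBS against PBS+PBS. None of the 10 genes was called by edgeR (0 at an unadjusted p under 0.05, and 0 by DESeq2). Over all tested genes edgeR called 0.00847%, which is 1 gene, and DESeq2 called 0.0593%. Adjusted p was 1 for each of the 10. Socs3 was at 1.94, 5.85, 3.21 and 3.62 CPM in DEX+PBS, which overlapped with PBS+PBS, and its log2 fold change was -1.0 (SE 0.57, approximate 95% interval -2.12 to 0.11). The other 9 differences were -0.29 to 0.45. For Il6st the difference was 0.01 (interval -1.16 to 1.18), with a sign that changed with the scaling, and for Jak1 it was -0.10 (interval -0.58 to 0.37).

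DEX before TNF was examined in DEX+TNF against PBS+TNF. No gene of the 10 was called by edgeR, with 3 at an unadjusted p under 0.05, and 0.339% of tested genes were called. DESeq2 called 2, Socs1 and Socs3, and 2.32% of all tested genes. These 2 were also the ones whose DEX+TNF libraries all lay below all PBS+TNF libraries, where 6.38% of tested genes had groups that did not overlap in either direction.

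The DEX+TNF libraries 1 to 4 held 43.9, 50.2, 9.19 and 5.44 CPM of Socs3, all under the lowest PBS+TNF library at 108.8 CPM. Socs3 differed by -2.50 on the log2 scale (SE 0.56, edgeR adjusted p = 0.0679), and this p was 0.000664 to 0.279 over the 25 alternatives, the lowest with DESeq2. Without the libraries labelled DEX+TNF 3 and 4 the difference was -1.71 (SE 0.40), with an unadjusted p of 0.000631 and an adjusted p of 0.244 in a fit that called no gene at all. In DEX+TNF 1 and 2 Socs3 lay below every PBS+TNF library. Nfkbia, which glucocorticoids are known to induce as well, was within or above the PBS+TNF range there. Whether Socs3 differed from other TNF-induced genes in this respect was not tested.

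Socs1 held 7, 4, 2 and 4 counts in DEX+TNF 1 to 4, or 0.565, 0.323, 0.204 and 0.1995 CPM, against 1.45 CPM in the lowest PBS+TNF library. Socs1 differed by -3.07 on the log2 scale (SE 0.68, edgeR adjusted p = 0.0641), with an adjusted p of 0.000796 to 0.392 over 24 alternatives. Without the libraries labelled 3 and 4 it was -2.60 (SE 0.84, adjusted p = 0.392). All 4 DEX+TNF libraries lay within the range of the groups without TNF, which was 0.102 to 0.916 CPM.

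Among the other 8 genes, Il6st, Stat3, Jak2 and Cish differed most between the 2 kinds of library, and Jak1, Socs2 and Stat5a differed less. Stat5b was at 10.003 to 17.3 CPM in all 4 DEX+TNF libraries, with 3 and 4 inside the PBS+TNF range. Jak1 was at 140.4, 147.4, 78.6 and 70.2 CPM in DEX+TNF, Socs2 at 39.0, 46.5, 25.6 and 21.5 CPM and Stat5a at 7.34, 4.85, 3.37 and 3.74 CPM. Il6st was at 214.6 and 207.1 CPM in DEX+TNF 1 and 2, within the PBS+TNF range, and at 19.8 and 33.9 CPM in 3 and 4. Stat3 was at 196.4 and 235.5 CPM against 52.2 and 53.0 CPM, Jak2 at 91.8 and 91.1 CPM against 34.2 and 32.9 CPM, and Cish at 16.5 and 18.03 CPM against 0.919 and 3.64 CPM. Without the libraries labelled 3 and 4, the log2 differences from PBS+TNF were 0.53 (SE 0.43) for Il6st, 0.20 (SE 0.34) for Stat3, -0.18 (SE 0.28) for Jak2 and -0.22 (SE 0.44) for Cish. The intervals of these differences were wide, -0.31 to 1.37 for Il6st and -1.09 to 0.65 for Cish. In the same fit the difference was 0.02 (SE 0.21) for Jak1, 0.02 (SE 0.21) for Socs2 and 0.22 (SE 0.36) for Stat5a.

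TNF after DEX was examined in DEX+TNF against DEX+PBS. Socs3 alone of the 10 genes was called, with 0.339% of tested genes called, and DESeq2 called 3 (Socs3, Cish and Il6st), with 2.19% of all genes. Socs3 rose by a log2 fold change of 2.86 (SE 0.59, adjusted p = 0.0486), from 1.94 to 5.85 CPM in DEX+PBS, and DEX+TNF 4 at 5.44 CPM overlapped with that range. This call was lost in 17 of 25 alternatives, where adjusted p reached 0.407. They include every fit that left out a single library other than DEX+TNF 3 or 4.

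Without the libraries labelled DEX+TNF 3 and 4, the same comparison called 7 of the 10 genes, where 10.5% of 12223 tested genes were called. Socs3 was higher by a log2 fold change of 3.65 (SE 0.38, adjusted p = 9.87e-06), Cish by 3.44 (SE 0.46, 0.000115), Il6st by 2.88 (SE 0.42, 0.000318), Stat3 by 1.91 (SE 0.33, 0.00099) and Jak2 by 1.60 (SE 0.27, 0.00103). Socs2 (0.86, SE 0.21, 0.0147) and Jak1 (0.80, SE 0.21, 0.0203) also passed. Socs1 differed by 0.40 (SE 0.85, adjusted p = 0.812), where PBS+TNF against PBS+PBS gave 3.44. The 2 libraries kept were the 2 with high Nfkbia, so this fit describes them and does not stand for the group.

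**Figure D3:**
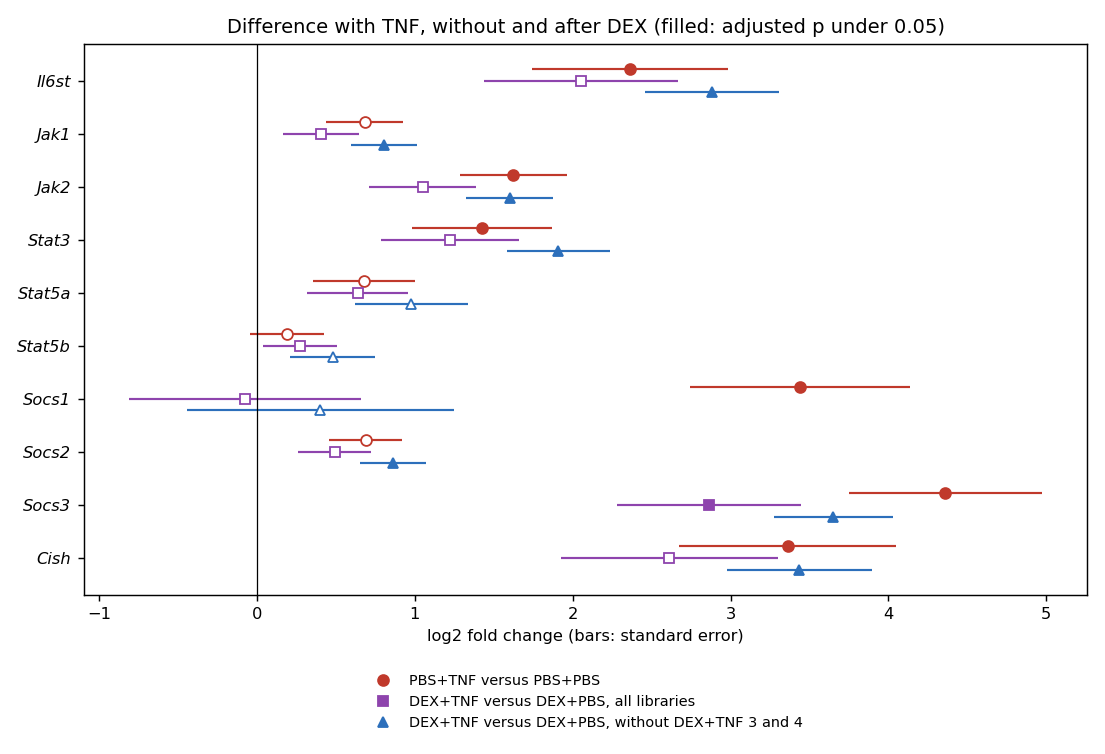
Log2 fold change (x axis, bars are standard errors) of the 10 genes with TNF, without DEX (circles), after DEX in all libraries (squares) and after DEX without the libraries labelled DEX+TNF 3 and 4 (triangles); filled markers passed an adjusted p under 0.05. Socs1 is at 3.44 without DEX and at -0.08 and 0.40 after DEX, while Il6st is at 2.36, 2.05 and 2.88.

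Whether the difference with TNF itself changed with DEX was tested by the interaction of the 2 injections. No gene of the 10 was called by edgeR (1 at an unadjusted p under 0.05 and 0 by DESeq2). Of all tested genes edgeR called 0% and DESeq2 0.0762%. Socs1 had the largest interaction, a log2 value of -3.52 (SE 1.00, adjusted p = 0.735), followed by Socs3 at -1.50 (SE 0.78, adjusted p = 0.960). For the other 8 genes it was -0.75 to 0.08. Without the libraries labelled DEX+TNF 3 and 4, Socs1 was at -3.04 (SE 1.12, adjusted p = 0.812) and Socs3 at -0.70 (SE 0.50, adjusted p = 0.972). A difference between the TNF responses with and without DEX was thus not shown by this test for any of the genes.

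**Figure D4:**
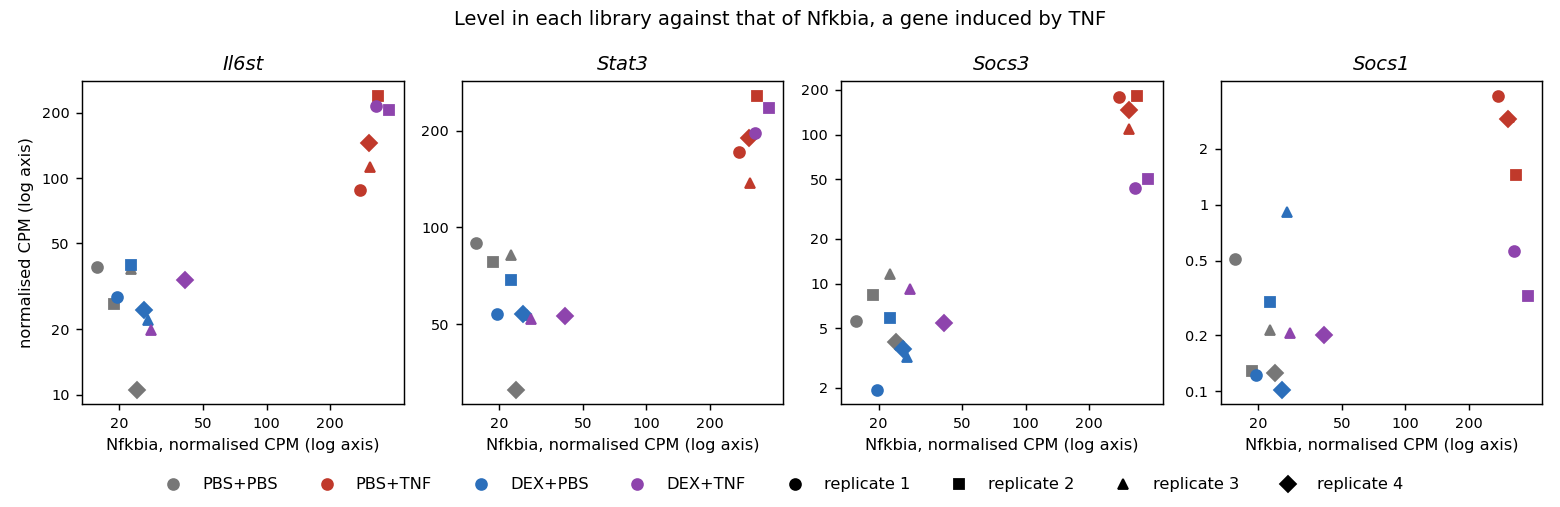
Normalised CPM of Il6st, Stat3, Socs3 and Socs1 (y axes, log scale) against Nfkbia (x axes, log scale) in the 16 libraries; colours give the group and markers the replicate. At an Nfkbia level of 277 to 382 CPM, DEX+TNF 1 and 2 lie among the PBS+TNF libraries for Il6st and Stat3 and below them for Socs3 (43.9 and 50.2 CPM) and Socs1 (0.565 and 0.323 CPM).

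The rest of the pathway was described with lists of genes by role, first for PBS+TNF against PBS+PBS. These lists were chosen with earlier results of these data known, so counts and medians over them are descriptions. Of the other SOCS genes (Socs4, Socs5, Socs6 and Socs7), 0 of 4 were called by edgeR and 1 by DESeq2. Over all tested genes the shares called were 12.5% and 17.5%, so counts this small do not set these 4 genes apart. Their median log2 fold change was -0.03, and Socs7, the one with the most counts, was at 20.1 ± 9.31 CPM (SD, n = 4) in PBS+PBS and 20.01 ± 5.44 CPM in PBS+TNF. Socs4 was at 13.7 ± 1.53 and 19.1 ± 3.38 CPM (adjusted p = 0.0865) and Socs6 at 10.6 ± 2.46 and 9.94 ± 1.44 CPM (adjusted p = 0.831). Among the other JAK and STAT genes, Stat2, a factor of type I interferon signalling, rose from 16.3 ± 5.50 to 47.4 ± 7.18 CPM (log2 fold change 1.54, SE 0.34, adjusted p = 0.00773). Stat6 was at 39.8 ± 5.98 and 55.5 ± 12.4 CPM (adjusted p = 0.300), and the kinase gene Tyk2 at 18.01 ± 3.20 and 23.4 ± 6.48 CPM (adjusted p = 0.456).

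Among 11 further inhibitors of the pathway, 2 rose, with 12.5% of all tested genes called in this comparison, the phosphatases Ptpn2 and Ptpn1, which remove phosphate from JAK kinases and STATs. Ptpn2 was at 8.25 ± 1.66 and 26.1 ± 6.10 CPM (SD, n = 4; log2 fold change 1.66, SE 0.26, adjusted p = 0.00116) and Ptpn1 at 13.4 ± 3.45 and 39.9 ± 11.5 CPM (1.57, SE 0.32, adjusted p = 0.00507). In DEX+TNF 1 and 2, Ptpn2 was at 16.1 and 15.4 CPM, below its lowest PBS+TNF library at 20.6 CPM. The phosphatase Ptpn11 was at 34.9 ± 10.2 and 50.8 ± 9.13 CPM and did not pass the test (adjusted p = 0.298), nor did the ubiquitin ligase gene Cbl at 11.8 ± 4.81 and 17.1 ± 7.88 CPM (adjusted p = 0.409).

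Of the 5 tested receptor chains that pair with gp130, 1 rose and 1 fell, where 12.5% of all tested genes were called. Osmr, which joins gp130 in the oncostatin M receptor, passed the low-count filter through the TNF groups. It was nearly absent without TNF, with 6 counts over the 4 PBS+PBS libraries. It stood at 10.8, 30.2, 12.9 and 13.4 CPM in PBS+TNF, with a fitted log2 fold change of 7.16 (SE 1.08, adjusted p = 0.000976) that rests on those few counts. Il6ra, the chain that binds interleukin 6, went the other way, from 11.8, 10.02, 9.82 and 2.64 CPM in PBS+PBS to 0.193, 2.29, 0.703 and 1.68 CPM in PBS+TNF. It fell by 2.69 on the log2 scale (SE 0.53, adjusted p = 0.0043), with PBS+PBS 4 close to the PBS+TNF libraries. Il11ra1, the interleukin 11 chain, was at 6.28 ± 0.429 and 7.03 ± 1.18 CPM (SD, n = 4; adjusted p = 0.772). After DEX, Il6ra was at 9.39 to 15.0 CPM with PBS and at 2.74, 2.99, 7.55 and 8.28 CPM with TNF (adjusted p = 0.348), and the DEX+TNF libraries 1 to 4 held 8.87, 12.8, 0.204 and 1.05 CPM of Osmr. Osmr was called in DEX+TNF against DEX+PBS (log2 fold change 5.79, SE 1.10, adjusted p = 0.0456), a call lost in 16 of 24 alternatives, where adjusted p reached 0.184. With the libraries labelled DEX+TNF 3 and 4 left out, the difference was 6.71 for Osmr (SE 0.64, adjusted p = 4.02e-06) and -2.15 for Il6ra (SE 0.58, adjusted p = 0.0266).

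A list of 12 further tested receptor genes held chains of JAK-using receptors outside the gp130 group and Egfr, a receptor with a kinase of its own. Of these 7 rose and 1 fell with TNF, where 12.5% of all tested genes were called. Those that rose were chains of the receptors for interferons (Ifnar1, Ifngr1, Ifngr2 and Ifnlr1) and for interleukins 4 and 13 (Il4ra and Il13ra1), and Egfr. Ifngr2 was at 19.9 ± 2.40 CPM in PBS+PBS and 93.9 ± 11.5 CPM in PBS+TNF (SD, n = 4; log2 fold change 2.24, SE 0.35, adjusted p = 0.00121), Il4ra at 17.8 ± 4.62 and 66.1 ± 14.5 CPM (1.89, SE 0.31, 0.00147) and Ifnar1 at 12.9 ± 1.46 and 45.9 ± 11.9 CPM (1.83, SE 0.39, 0.00648). Il13ra1 was at 53.9 ± 12.8 and 118 ± 26.4 CPM (1.13, SE 0.24, 0.00568). The growth hormone receptor Ghr fell, from 67.4 ± 13.02 to 38.4 ± 8.44 CPM (log2 fold change -0.81, SE 0.25, adjusted p = 0.0436).

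Ligands were scarce. Of 18 ligand genes, 3 were tested and 0 were called by edgeR (1 by DESeq2), where 12.5% and 17.5% of all tested genes were called. Il6, Osm and Il22 had 0 counts in all 16 libraries, which allows a level of up to 0.412 plain CPM (3 counts) in the smallest library. In normalised CPM this limit is higher for libraries with a TMM factor under 1. Lif was at 1.18 ± 0.497 CPM in PBS+PBS and 3.09 ± 1.33 CPM in PBS+TNF (SD, n = 4; adjusted p = 0.0985). Ctf1 was at 2.57 ± 1.13 and 2.33 ± 0.929 CPM (adjusted p = 0.890) and Il15 at 0.598 ± 0.271 and 1.44 ± 0.744 CPM (adjusted p = 0.331).

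Of 24 listed genes that STAT3 induces in many cells, 18 were tested. Lrg1, Osmr and Steap4 passed the low-count filter through the TNF groups, where they were high. With a list chosen after earlier results were known, the values below are descriptions, and STAT3 activity was not tested. The median log2 fold change of the 18 genes was 2.05, against -0.03 over all tested genes. Of these 18 genes, 11 rose and 0 fell, where 12.5% of all tested genes were called. They were Bcl3, Cebpd, Fosl2, Hif1a, Il4ra, Junb, Lrg1, Mcl1, Osmr, Pim1 and Steap4, of which Il4ra and Osmr are counted above too, and Bcl3, Cebpd and Junb are known to be induced through NF-kB as well. Junb was at 20.3 to 25.5 CPM in PBS+PBS and 165 to 211 CPM in PBS+TNF, and in DEX+TNF 1 to 4 at 144, 174, 33.8 and 21.0 CPM. Steap4, a metalloreductase, had 9 counts over PBS+PBS and stood at 27.2 to 66.7 CPM in PBS+TNF (fitted log2 fold change 8.02, SE 1.19, adjusted p = 0.000945). The antimicrobial lectin Reg3g was at 1050 ± 77.6 and 2636 ± 921 CPM (SD, n = 4) and did not pass the test (adjusted p = 0.138), nor did Reg3b at 115 ± 40.4 and 224 ± 95.4 CPM (adjusted p = 0.320). In DEX+TNF against DEX+PBS, 4 of the 18 were called (Cebpd, Junb, Osmr and Steap4), with 0.339% of all tested genes called. The calls of Cebpd, Osmr and Steap4 were each lost in 14 of 16 fits with a single library left out. When DEX+TNF 3 and 4 were left out, 13 of the 18 rose, where 10.5% of all tested genes were called, with Junb at a log2 fold change of 3.06 (SE 0.22, adjusted p = 1.77e-07). With DEX alone, in DEX+TNF against PBS+TNF and for the interaction, 0 were called by edgeR. Of all tested genes it called 0.00847%, 0.339% and 0% there.

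Of 8 tested genes that STAT5 induces in many cells, 1 rose with TNF, the same share as over all tested genes, of which 12.5% were called. It was the kinase Pim1, which is on the STAT3 list too, from 6.02 ± 0.670 to 25.5 ± 4.04 CPM (SD, n = 4; difference 2.08 on the log2 scale, SE 0.34, adjusted p = 0.00134). The median of this list was -0.34. The cyclins Ccnd2 (27.7 ± 9.57 and 22.4 ± 7.33 CPM) and Ccnd1 (20.8 ± 4.60 and 15.7 ± 7.80 CPM) did not pass the test (adjusted p = 0.739 and 0.666).

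With DEX alone, and in DEX+TNF against PBS+TNF, edgeR called 0 genes of any of these lists. It called 0.00847% and 0.339% of all tested genes there. In the latter comparison DESeq2 called 2.32% of all tested genes. It called 1 gene each among the inhibitors, the chains that pair with gp130, the other receptors and the STAT3-induced genes. The median log2 difference in DEX+TNF against PBS+TNF was -0.85 for the 18 STAT3-induced genes and 0.03 over all tested genes. Without the libraries labelled DEX+TNF 3 and 4 it was -0.43 for these genes and -0.02 over all, and edgeR called 0 of all tested genes. In DEX+TNF against DEX+PBS without them, 10.5% of all tested genes were called. There 7 of the 12 further receptors, 2 of the 11 inhibitors (Ptpn1 and Ptpn2) and 1 of the 8 STAT5-induced genes (Pim1) rose. Among the other JAK and STAT genes, Stat2 (log2 fold change 1.18, adjusted p = 0.0174), Stat6 (0.90, 0.0211) and Tyk2 (1.01, 0.0232) rose too. Of the chains that pair with gp130, Osmr rose and Il6ra fell, as given above.

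The genes whose levels over the 16 libraries were most like those of the inhibitors were found by Pearson correlation of log2 CPM among the 7930 genes that averaged 5 CPM or more. The libraries share their groups and the 2 kinds of DEX+TNF library, so these values are descriptions. Socs3 was most like Gclc (r = 0.978), the guanylate-binding protein gene Gbp2 (0.971) and the interferon regulatory factor gene Irf1 (0.970). Gbp2, as Socs3, was lower in DEX+TNF 1 and 2 (28.3 and 37.7 CPM) than in any PBS+TNF library (61.8 to 126 CPM). Cish was most like Clic4 (0.969), Bcl3 (0.966) and Rabgef1 (0.965), and Socs2 was most like Rhbdl3 (0.939), Rnf14 (0.937) and Irak2 (0.928). For Socs1, with its few counts, the closest were Gpx2 (0.860), Atf3 (0.855) and Pstpip2 (0.850).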

How the data were processed

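The authors deposited unnormalised read counts by Ensembl gene identifier in 1 table of 16 libraries, prepared with the TruSeq Stranded mRNA kit per the labels. The study's methods give STAR on GRCm39 with GENCODE M30. The submitters' processing notes name FastQC 0.12, STAR 2.7.10a and DESeq2. Which program counted, whether strand was used and how reads matching several genes were treated are not given in the sources used here. Gene positions and lengths came from GENCODE M39 on the same assembly, which held 54749 of 55414 identifiers, and promoter windows from a RefSeq table of GRCm38.p6, located in GRCm39 by exact match.

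Groups and replicate numbers came from the labels. Genes were filtered with filterByExpr, scaled with TMM and fitted over all 16 libraries with a mean per group by the quasi-likelihood test of edgeR 4.0.16 (limma 3.58.1, R 4.3.3), with 5 contrasts, each adjusted by Benjamini-Hochberg over 11809 genes. A gene was called at an adjusted p under 0.05. The SE is the log2 fold change divided by the square root of F, and the approximate 95% intervals derive from it. The fit was repeated with upper-quartile or median-of-ratios scaling, without the Defa genes in the scaling, with no filter or a filter at 5 CPM on average, with DESeq2 1.42.0, on the 2 compared groups alone, with a replicate block, without DEX+TNF 3 and 4 together, and without each library. The procedure was tested on simulated data. Every pair of libraries within a group differed by more than sampling noise.

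The 10 genes and the gene lists were chosen with earlier results of these data known. Named in the text are the 10 genes, from each list the 3 tested genes with the most counts and up to 3 called genes with the largest change, the 3 genes most like each inhibitor, and Nfkbia, Tnfaip3, Fkbp5 and Tsc22d3. Genes named beyond that rule were chosen after their values were seen, and a gene that the rule names is not reported here.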

Additional observations from a re-analysis of the deposited data

Results flagged for a closer look

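Gaps within groups of 4 libraries were examined for the 10 genes and 30 named list genes in 160 groups, and 10 libraries stood apart from the other 3 by a gap above Dixon's 95% critical value for 4 samples. Chance flags about 1 in 20 groups. Among the 10 genes, Stat3 was at 68.8 CPM in DEX+PBS 2 (53.6 to 53.9 in the others) and Stat5b at 8.29 CPM in PBS+PBS 4 (11.7 to 11.9). PBS+PBS 4 was also lowest for Socs4 (11.4 CPM, others 14.1 to 14.6), Ptpn1 (8.29 CPM, others 14.8 to 15.7) and Reg3g (935 CPM, others 1072 to 1098). PBS+PBS 3 was lowest for Reg3b (55.5 CPM, others 131 to 144) and PBS+PBS 2 highest for Lrg1 (0.447 CPM, others 0). PBS+TNF 2 was highest for Osmr (30.2 CPM, others 10.8 to 13.4), and PBS+TNF 3 for Il11ra1 (8.79 CPM, others 6.36 to 6.57). Ccnd1 was at 45.9 CPM in DEX+TNF 4 (8.41 to 11.7 in the others).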

How the results depend on the processing

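The number of the 10 genes called in PBS+TNF against PBS+PBS was 4 to 8 over all alternatives and over single libraries left out, and it was 0 throughout for DEX+PBS against PBS+PBS and for the interaction. In DEX+TNF against PBS+TNF it was 0, with 2 by DESeq2 and 0 to 1 with single libraries left out (1 without DEX+PBS 3, DEX+TNF 1 or DEX+TNF 2). In DEX+TNF against DEX+PBS it was 1, with 0 without the filter on low counts, 0 with only the 2 groups compared, 3 by DESeq2 and 7 without DEX+TNF 3 and 4, and 0 to 4 with single libraries left out (4 without DEX+TNF 3, 3 without DEX+TNF 4). The cause of these changes was not tested. Socs1 had 190 counts over all libraries, the fewest of the 10 genes.

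With the replicate number as a block, 6 genes were called in PBS+TNF against PBS+PBS and 0 in DEX+TNF against DEX+PBS, where the adjusted p of Socs3 was 0.150, and the block changed no other call of the 10 genes. Deviations of same-numbered libraries correlated at -0.37 to 0.50 over 24 pairs, with the 6 pairs of replicate 2 at 0.15 to 0.41 and those of replicate 4 among PBS+TNF, DEX+PBS and DEX+TNF at 0.27 to 0.50. Since not every pair was above 0.1, the numbers were not taken to pair the libraries. Under the block the Stat5b difference in DEX+PBS against PBS+PBS was -0.015.

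Some differences that were not called changed sign. In DEX+PBS against PBS+PBS, Stat5b (0.0010 as reported) was at -0.0048 with median-of-ratios factors, -0.0049 with upper-quartile factors, -0.022 with the filter at 5 CPM, -0.0034 with DESeq2 and -0.00498 with only the 2 groups compared, and Il6st (0.0055) was at -0.00011 with upper-quartile factors, -0.011 with the filter at 5 CPM and -0.00043 with only the 2 groups. Without DEX+TNF 3 and 4, the log2 difference in DEX+TNF against PBS+TNF was 0.018 for Socs2 (-0.35 with all libraries), 0.20 for Stat3 (-0.49), 0.22 for Stat5a (-0.12), 0.024 for Jak1 (-0.38) and 0.53 for Il6st (-0.30). In DEX+TNF against DEX+PBS it was 0.40 for Socs1 (-0.08 with all). The interaction was then 0.17 for Socs2 (-0.20 with all), 0.081 for Cish (-0.75), 0.48 for Stat3 (-0.20), 0.30 for Stat5a (-0.04), 0.12 for Jak1 (-0.28) and 0.52 for Il6st (-0.31).

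With single libraries left out, differences in DEX+PBS against PBS+PBS were -0.43 to 1.04 for Socs1, -0.61 to 0.10 for Cish, -0.27 to 0.25 for Stat5a, -0.19 to 0.10 for Stat5b and -0.27 to 0.19 for Il6st. In DEX+TNF against PBS+TNF they were -0.39 to 0.018 for Stat5a, -0.075 to 0.19 for Stat5b and -0.75 to 0.051 for Il6st, and in DEX+TNF against DEX+PBS -0.48 to 0.81 for Socs1. For the interaction they were -0.62 to 0.071 for Stat3, -0.37 to 0.16 for Stat5a, -0.077 to 0.27 for Stat5b and -0.76 to 0.044 for Il6st.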

Other observations

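The counts of Socs3 per 100 counts of Nfkbia in the same library do not depend on the scaling between libraries. This ratio was chosen after the values had been seen. It was 64.2, 54.1, 35.0 and 47.6 in PBS+TNF 1 to 4 and 13.3, 13.2, 32.5 and 13.2 in DEX+TNF 1 to 4, with no overlap, although DEX+TNF 1 and 2 and the libraries labelled 3 and 4 were far apart in Nfkbia itself. The mean log2 difference was -1.57, and -1.89 without the libraries labelled DEX+TNF 3 and 4. No test is given, since the ratio was chosen for this difference. The ratio was 35.7, 44.9, 50.7 and 16.7 in PBS+PBS and 9.94, 25.7, 11.8 and 13.9 in DEX+PBS, a mean log2 difference of -1.25. Between PBS+TNF and PBS+PBS the mean log2 difference was 0.52. Nfkbia is known to be induced by glucocorticoids as well as by TNF, so the ratio is not a measure of Socs3 alone.

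Some further genes, chosen after their values were seen, are given for DEX+TNF 1 and 2. The receptor gene Ifngr2 was at 93.8 and 100.3 CPM (79.0 to 105 CPM in PBS+TNF), and Steap4 at 35.6 and 31.3 CPM (27.2 to 66.7 CPM in PBS+TNF). Cebpd was at 13.1 and 20.7 CPM (27.6 to 34.9 CPM in PBS+TNF) and Ptpn2 at 16.1 and 15.4 CPM (20.6 to 33.9 CPM).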
